A study of Rattus norvegicus with 54 samples.

Results

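Lung RNA of young rats was set against the phase of the circadian clock in the same animal, read from its right ventricle. Of the 54 libraries of the series, 29 are lung, and 19 of those were used. They are the lung libraries of litters 3HH (8 rats), 4HH (4 rats) and 4RARA (7 rats) whose animal also gave a right ventricle library, without animals 4HH37 and 4HH39. The phase of a rat is its right ventricle log2 CPM (read counts scaled to a common library total) of Arntl minus that of Dbp, so a low value marks much Dbp and little Arntl, and 1 unit is 1 log2 step in their ratio. Lung counts were fitted on this phase with litter as a factor, so every slope is taken between littermates. The animals were thus ordered by a phase chosen by ventricular Arntl and Dbp, and the lung values come from other libraries and did not enter it.

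All animals were Sprague Dawley rats killed at 6 weeks of age, and 9 of the 19 were male. Litters 3HH and 4HH (H-H, 12 rats) were conceived, born and raised in a hypobaric chamber that simulated 9000 feet, equal to 15% inspired oxygen. Litter 4RARA (RA-RA, 7 rats) lived in room air throughout. Parents entered their environment at 7 weeks of age, mating began at 10 weeks, and weaning was on day 21. Littermates counted as replicates, so p-values measure the spread between animals of these 3 litters. The hour at which each rat was killed is not given in the sources used here. Lung and ventricle are whole tissue, in which fewer cells of a type and less RNA per cell cannot be told apart.

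The circadian clock is a transcriptional feedback loop present in nearly every mammalian cell, the lung included. BMAL1, the product of Arntl, pairs with CLOCK or NPAS2 and switches on the Per, Cry, Nr1d1, Nr1d2, Ciart, Dbp and Tef genes through E-box sequences. PER and CRY proteins then block the activator, and the REV-ERB repressors made from Nr1d1 and Nr1d2 shut off Arntl through ROR elements, so that Arntl and the E-box genes peak at opposite times of day. A tissue taken at 1 time gives a snapshot of this cycle.

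Promoter windows of the genes on which the results turn are printed to show the sequence context of both arms of the loop. RefSeq windows of assembly GRCr8, from 250 bases before to 50 bases after the annotated start, were found for 14 of the 15 clock genes measured in lung, in 16 windows. Arntl is listed there as Bmal1. Both strands were searched for the E-box CACGTG, the E-box variant CACGTT, the D-box TTATGTAA and the ROR element core TAGGTCA, none of which overlapped another in these windows. The first window is that of Arntl (chr1:176766078-176766377, plus strand), with the core of its ROR element in capitals. The second is that of Ciart (chr2:186112197-186112496, minus strand), with its E-boxes in capitals. The windows of Dbp (chr1:105312006-105312305, plus strand), Nr1d2 (chr15:9954784-9955083, plus strand) and Per3 (chr5:166777751-166778050, minus strand), the genes called for the slope, follow in lower case, as none of these letters was found in them.
Arntl: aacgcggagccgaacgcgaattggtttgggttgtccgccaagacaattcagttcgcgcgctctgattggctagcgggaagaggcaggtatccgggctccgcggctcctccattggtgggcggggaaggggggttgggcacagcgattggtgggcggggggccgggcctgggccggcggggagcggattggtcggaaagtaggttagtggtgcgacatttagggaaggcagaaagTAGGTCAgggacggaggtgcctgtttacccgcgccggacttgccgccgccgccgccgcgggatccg
Ciart: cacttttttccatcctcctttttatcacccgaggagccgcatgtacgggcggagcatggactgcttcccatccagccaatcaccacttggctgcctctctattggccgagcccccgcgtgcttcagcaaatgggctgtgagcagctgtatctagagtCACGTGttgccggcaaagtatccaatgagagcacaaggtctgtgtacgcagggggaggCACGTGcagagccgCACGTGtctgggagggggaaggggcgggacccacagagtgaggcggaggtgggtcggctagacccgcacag
Dbp: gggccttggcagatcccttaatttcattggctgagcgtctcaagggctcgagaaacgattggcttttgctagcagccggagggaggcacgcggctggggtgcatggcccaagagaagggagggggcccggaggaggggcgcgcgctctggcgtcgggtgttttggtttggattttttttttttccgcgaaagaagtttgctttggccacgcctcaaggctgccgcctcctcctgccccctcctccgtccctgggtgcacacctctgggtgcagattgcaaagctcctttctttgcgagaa
Nr1d2: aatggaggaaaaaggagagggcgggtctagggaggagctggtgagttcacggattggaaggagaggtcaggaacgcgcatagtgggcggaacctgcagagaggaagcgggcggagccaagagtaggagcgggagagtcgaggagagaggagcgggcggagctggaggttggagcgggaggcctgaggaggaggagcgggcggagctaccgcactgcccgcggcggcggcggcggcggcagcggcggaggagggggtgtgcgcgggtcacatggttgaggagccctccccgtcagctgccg
Per3: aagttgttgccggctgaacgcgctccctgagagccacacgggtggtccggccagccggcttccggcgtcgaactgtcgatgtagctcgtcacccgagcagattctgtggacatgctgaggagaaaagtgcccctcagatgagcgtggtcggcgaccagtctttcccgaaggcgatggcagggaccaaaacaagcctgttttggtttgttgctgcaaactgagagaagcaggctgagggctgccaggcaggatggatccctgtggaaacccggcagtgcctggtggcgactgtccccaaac

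The ROR element core of Arntl begins at −16 from the start, and 2.63% of all 33469 rat windows hold such a match. The E-boxes of Ciart begin at −93, −35 and −21. An E-box was found for 4 of the 14 clock genes (Tef, Nr1d1, Ciart and Bhlhe40) and in 6.42% of all windows. The E-box variant was found for 3 (Per2, Nr1d1 and Cry2; 4.83% of all windows) and the D-box for Per2 alone (0.893%). These matches are descriptions of the sequence, and the absence of a match says only that the letters are not within this window.

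The phases spread over several log2 units within every litter. In 3HH the 8 rats lay between −6.95 and −3.18 with a median of −5.20. The 4 rats of 4HH lay at −6.36, −4.10, −3.78 and −1.79. In 4RARA the 7 rats lay between −4.17 and 2.76 with a median of −0.12. The room air litter therefore reached further towards high Arntl than either altitude litter, and 2 of its 7 rats fell inside the range of the altitude rats.

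The lung followed the ventricle of the same rat in both litters large enough to test. Lung Arntl minus Dbp ran from −5.80 to 0.13 in 3HH and from −0.77 to 3.47 in 4RARA. Across the 8 rats of 3HH it correlated with the ventricular phase at r = 0.988 (exact permutation p = 7.44e-05, two-sided, adjusted p = 0.000149 over the 2 litters) and at a Spearman rho of 0.976 (exact p = 0.000397, adjusted 0.000794). Across the 7 rats of 4RARA the values were r = 0.967 (exact permutation p = 0.00278, adjusted 0.00278) and rho = 0.929 (exact p = 0.00675, adjusted 0.00675). Without the 2 rats farthest from the median phase, r was 0.982 in 3HH (6 rats, exact p = 0.00278, adjusted p = 0.00556) and 0.862 in 4RARA (5 rats, exact p = 0.0667, where 0.00833 is the smallest possible), so without those rats the relation in 4RARA did not pass the test.

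In 4HH the lung values, in the order of the phase, were −3.06, −1.85, −0.86 and 0.27, the same order as in the ventricle. A lung index step of 1.62 per unit of phase in 3HH stood beside 0.54 in 4RARA. In 4 rats of the second room air litter, 6RARA, which took no part in the fits, phases of −2.73, −1.54, 2.35 and 2.49 stood beside lung values of −0.04, 1.09, 2.70 and 2.57. The pair with low and the pair with high phase were thus also apart in the lung, while the 2 rats with the highest phases were in reverse order.

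**Figure D1:**
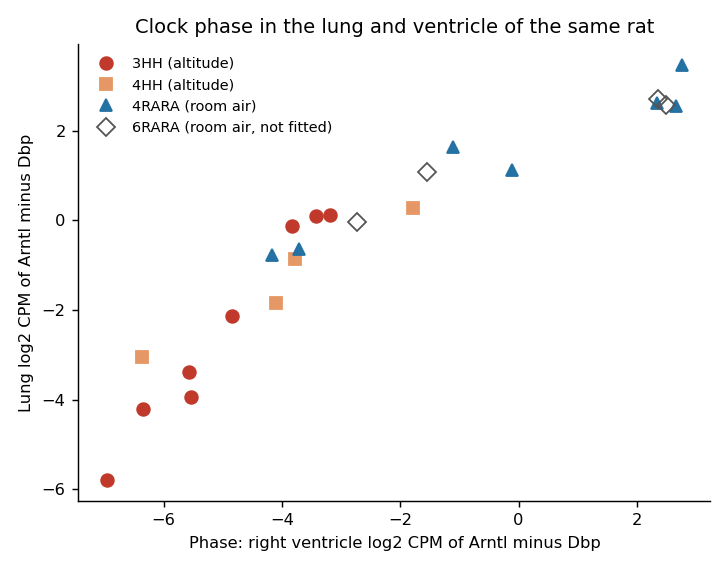
Lung log2 CPM of Arntl minus Dbp (vertical axis) against the same difference in the right ventricle (horizontal axis), 1 point per rat, filled for the 19 rats fitted and open for the 4 rats of litter 6RARA. Points climb from the lower left (−6.95 in ventricle, −5.80 in lung) to the upper right (2.76 and 3.47), with the altitude litters to the left of most room air rats.

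The libraries had the markers of their labelled tissue. The summed level of 11 alveolar type 2 cell genes was 48235 to 76504 CPM in lung and 571 to 1371 CPM in ventricle, and cardiac muscle genes summed to 38.5 to 157 CPM in lung against 76023 to 115645 CPM in ventricle. Total counts were 9707031 to 23902634 per lung library and 6172411 to 14123386 per ventricle library. The sequencing core marked the libraries of 3HH28 as swapped, without saying with what, and 3HH27 had the lowest lung depth and the highest macrophage and monocyte sum (43179 CPM, against 31682 CPM or less elsewhere). Without either rat the fit described next also gave 3 calls. In 4HH the 2 females had phases of −6.36 and −4.10 and the 2 males −3.78 and −1.79. Sex and phase cannot be told apart within that litter. In 4RARA the 3 males had phases of −0.12 to 2.66 and the 4 females −4.17 to 2.76. Library batch 2 held the 4 rats of 4RARA with the lowest phases while batches 1 and 3 held the 3 highest. Batch and phase were thus partly confounded in 4RARA.

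Of 12391 lung genes tested, 3 were called for the phase at an adjusted p under 0.05 (0.0242%), and all 3 were clock genes that fell as the phase rose, namely Dbp, Nr1d2 and Per3. A further reading of the same fit gave 344 genes at an unadjusted p under 0.05 (2.78%), and DESeq2 called 19. Dbp encodes a PAR bZip transcription factor that binds D-boxes in clock output genes. Nr1d2 encodes REV-ERB beta, a haem-binding repressor, and Per3 a period protein of the repressing complex.

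Lung Dbp (rn6 chromosome 1, 101687896 to 101692845) ranged from 32.9 to 302 CPM in 3HH with a median of 114 CPM. In 4HH it was 119, 69.9, 45.7 and 29.1 CPM in the order of rising phase. In 4RARA it ranged from 6.39 to 48.8 CPM with a median of 18.2 CPM. The rat with the lowest phase had the most Dbp in each litter, 8.79 times the level of the rat with the highest phase in 3HH, 4.08 times in 4HH and 7.64 times in 4RARA. The slope was −0.47 ± 0.05 (SE) log2 per unit of phase over the 19 rats (adjusted p = 2.84e-05), with −0.85 ± 0.06 in 3HH, −0.45 ± 0.07 in 4HH and −0.38 ± 0.03 in 4RARA when each litter had its own slope. It passed the threshold in 39 of 41 other fits, among them the fit with library batch as a covariate (−0.51, adjusted p = 7.58e-05). The 2 exceptions were the fits within library batch 1 (7 rats, −0.58, adjusted p = 0.35) and within batch 2 (9 rats, −0.55, adjusted p = 0.813), while batch 3 held 3 rats, too few to fit.

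Lung Nr1d2 (rn6 chromosome 15, 8730871 to 8757165) ranged from 127 to 281 CPM in 3HH with a median of 182 CPM. It was 194, 155, 118 and 109 CPM in 4HH in the order of rising phase, and 44.4 to 141 CPM in 4RARA with a median of 118 CPM. The 3 rats of 4RARA with the highest phases held 65.7 CPM or less, and the other 4 held 118 CPM or more. The slope was −0.21 ± 0.03 (adjusted p = 0.00298), and the litters gave −0.22, −0.19 and −0.21. With library batch as a covariate it was −0.20 (adjusted p = 0.0521), and within batches 1 and 2 it was −0.17 and −0.13 (adjusted p = 1.00 and 0.813).

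Lung Per3 (rn6 chromosome 5, 168088126 to 168123030) ranged from 69.3 to 186 CPM in 3HH with a median of 99.8 CPM. In 4HH it was 88.6, 76.7, 48.2 and 74.7 CPM in the order of rising phase, so the rat with the highest phase was not the lowest. In 4RARA it ranged from 18.4 to 49.3 CPM with a median of 38.9 CPM. The slope was −0.21 ± 0.03 (adjusted p = 0.0193), with −0.39 in 3HH, −0.07 in 4HH and −0.19 in 4RARA. Per3 was the last gene inside the threshold, and the call was lost without any 1 of 3HH25, 3HH30, 4RARA38, 4RARA41, 4RARA42 or 4RARA43 (adjusted p of 0.0536 to 0.117), with 4HH37 and 4HH39 added (−0.18, adjusted p = 1.00) and with batch as a covariate (−0.22, adjusted p = 0.0976). Within batches 1 and 2 the slopes were −0.18 and −0.19 (adjusted p = 1.00 and 0.813).

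**Figure D2:**
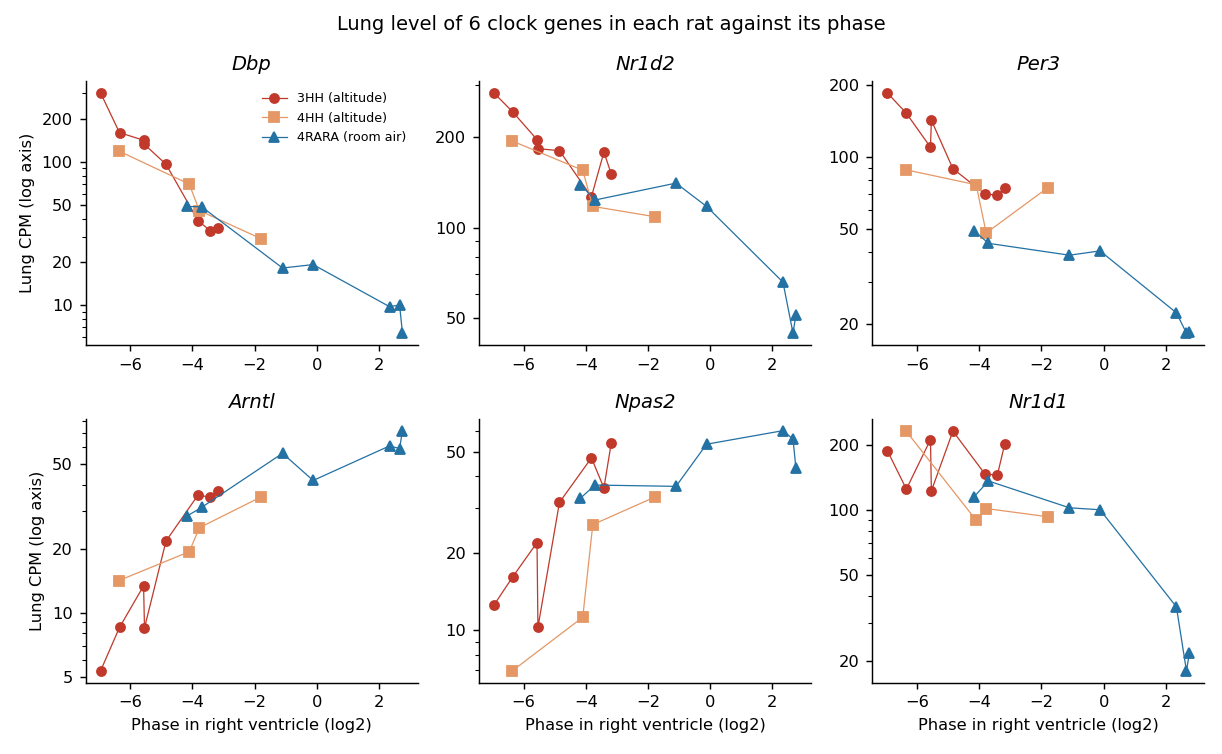
Lung CPM (log axis) of 6 clock genes against the right ventricular phase of the rat (log2), 1 point per rat, with lines joining littermates in the order of phase. Dbp, Nr1d2 and Per3 run downward, from 302 to 6.39 CPM for Dbp. Arntl and Npas2 run upward, and Nr1d1 stays between 122 and 231 CPM in 3HH.

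The other 7 measured genes of the Dbp arm did not pass the test, and their slopes were negative as well. Over the 10 genes of that arm the median slope was −0.18, against −0.00191 over all genes tested, and 8 had an unadjusted p under 0.05. Ciart, which encodes a repressor of the CLOCK and BMAL1 pair, had a slope of −0.33 ± 0.08 (adjusted p = 0.481), from 13.1 CPM in the lowest-phase rat of 3HH to 1.86 CPM in the highest. Tef, a PAR bZip relative of Dbp, had −0.15 ± 0.03 (adjusted p = 0.191), from 492 to 180 CPM in the same rats. Per2 had −0.14 ± 0.06 and Bhlhe40, a repressor also known as DEC1, −0.11 ± 0.03. Per1 (−0.06 ± 0.05) and Cry2 (−0.03 ± 0.03), which act in the repressing complex, lay nearest to 0. DESeq2 called 6 of the 10, adding Ciart, Tef and Nr1d1.

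Nr1d1, which encodes REV-ERB alpha, gave unlike slopes by litter. It was 122 to 231 CPM in 3HH with a median of 167 CPM, and there the slope was 0.02 ± 0.11. In 4HH it was 232 CPM in the rat with the lowest phase and 89.5, 101 and 92.9 CPM in the others. In 4RARA it ranged from 18 to 136 CPM, and the slope was −0.37 ± 0.06. The slope over the 19 rats was −0.28 ± 0.06 (adjusted p = 0.191). The difference between altitude and room air slopes was 0.24 ± 0.11 (adjusted p = 0.996). The same gene had a slope of −0.03 ± 0.09 in the ventricles that set the phase, where Nr1d2 had −0.21 ± 0.03.

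No gene of the Arntl arm was called by edgeR, and DESeq2 called Arntl and Npas2. All 5 measured members had positive slopes, with a median of 0.12, and 4 had an unadjusted p under 0.05. The other members of both clock lists were not analysed here. Lung Arntl ranged from 5.32 to 37.5 CPM in 3HH with a median of 17.6 CPM. In 4HH it was 14.2, 19.4, 25.1 and 35.1 CPM in the order of rising phase, and in 4RARA it ranged from 28.5 to 72 CPM with a median of 56.3 CPM. The rat with the highest phase had the most Arntl in each litter, 7.04 times the level of the lowest-phase rat in 3HH, 2.48 times in 4HH and 2.52 times in 4RARA.

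The Arntl slope was 0.27 ± 0.06 over the 19 rats (adjusted p = 0.191), with 0.77 ± 0.07 in 3HH, 0.29 ± 0.07 in 4HH and 0.16 ± 0.03 in 4RARA. Fitted in 3HH alone it was 0.78 ± 0.08 and passed the test (adjusted p = 0.00741). The call was also made by DESeq2 (0.28, adjusted p = 0.000882), with the phase divided by its SD within the litter (adjusted p = 0.000279), with its rank (adjusted p = 0.00208), and with ventricular Arntl alone as the phase (adjusted p = 0.00246). Over the 41 other fits its adjusted p ran from 0.000279 to 1.00.

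Npas2, the partner that can replace CLOCK, had a slope of 0.23 ± 0.06 (adjusted p = 0.575). It ranged from 10.2 to 54 CPM in 3HH and was 6.92, 11.2, 25.9 and 33.1 CPM in 4HH in the order of rising phase. In 4RARA it ranged from 32.8 to 60.3 CPM. Nfil3, a repressor that competes with DBP at D-boxes, had 0.12 ± 0.05. Cry1 had 0.09 ± 0.04, with −0.15 in 3HH and 0.15 in 4RARA, and Clock itself 0.05 ± 0.02, from 88.4 to 160 CPM in 3HH.

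**Figure D3:**
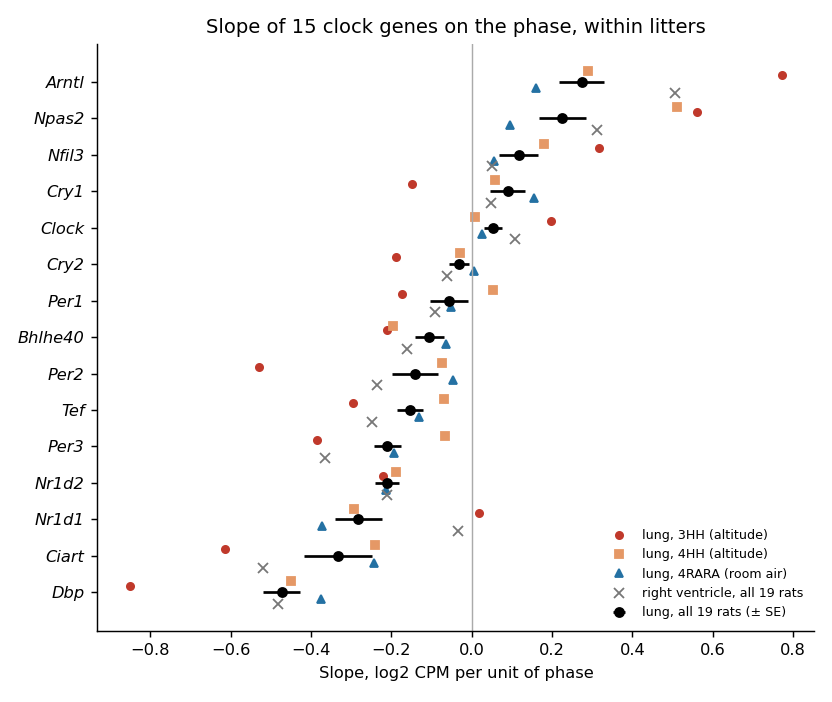
Slope on the phase in log2 CPM per unit (horizontal axis) for the 15 clock genes measured in lung, as black points with SE bars over 19 rats, coloured points for each litter and crosses for the right ventricle. Lung slopes run from −0.47 for Dbp to 0.27 for Arntl, and the 3HH points lie farthest from 0 for Dbp, Arntl, Npas2, Ciart and Per2.

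In the ventricle the slopes of the defining genes follow from the choice of the phase and are given only beside those of the lung. Per unit of phase, Arntl had 0.51 in ventricle and 0.27 in lung, and Dbp had −0.48 and −0.47. Per3 had −0.37 in ventricle and −0.21 in lung, Tef −0.25 and −0.15, and Ciart −0.52 and −0.33. Npas2 had 0.31 and 0.23.

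Whether altitude rats and room air rats followed the phase with unlike slopes was asked gene by gene. No gene of 12391 was called for the difference by edgeR (0%), with 370 at an unadjusted p under 0.05 (2.99%), and DESeq2 called 3. Those were Npas2 (0.45 ± 0.09, adjusted p = 0.00392), Arntl (0.39 ± 0.09, adjusted p = 0.0485) and Gc, the vitamin D binding protein of plasma (1.83 ± 0.40, adjusted p = 0.0363). By edgeR the altitude slope minus the room air slope was 0.44 ± 0.08 for Npas2 (adjusted p = 0.524), 0.39 ± 0.09 for Arntl (adjusted p = 0.996) and −0.30 ± 0.08 for Dbp (adjusted p = 0.996). For Nr1d2 and Per3 it was 0.01 ± 0.06 and −0.05 ± 0.07. The room air rats covered phases that the altitude rats did not reach, so treatment, litter and phase range cannot be told apart in these differences.

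Beyond the clock genes no member of any list passed the test in the edgeR fit to all 19 rats, while DESeq2 called Cyp1a1, Cyp2e1 and Klf2. The 17 kinases, ligases and partners of the clock proteins measured had a median slope of 0.0064, and none had an unadjusted p under 0.05. Timeless, a clock-linked replication factor, came first at −0.05 ± 0.03. Among 27 rhythmic output genes known from many tissues the median was −0.02 and 2 had an unadjusted p under 0.05, with Pim3, a kinase, at −0.09 ± 0.04. A list of 19 glucocorticoid-responsive genes had 16 negative slopes, a median of −0.05 and 7 members at an unadjusted p under 0.05, against 2.78% of all genes. Over all genes tested, 6589 of 12391 slopes were negative, the share beside which the sign counts of each list stand.

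Lcn2, the siderophore-binding protein of that glucocorticoid list, had the lowest p in it at −0.19 ± 0.06 (adjusted p = 0.847). It was 147 to 438 CPM in 4RARA, and fitted in that litter alone its slope was −0.19 ± 0.02 and passed the test (adjusted p = 0.0171). In 3HH it was 93.0 to 261 CPM with its lowest value in the rat with the lowest phase, and the litter slope there was −0.09 ± 0.15. Of 24 immediate early genes 20 had negative slopes, against 6589 of all 12391 genes. Their median was −0.06 and 6 had an unadjusted p under 0.05. Klf2, a flow-responsive factor of endothelium, led them at −0.22 ± 0.05 (adjusted p = 0.313), and ranged from 31.6 to 168 CPM in 4RARA.

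Cyp1a1, the aryl hydrocarbon receptor target, led the 29 genes of xenobiotic metabolism at 0.22 ± 0.05 (adjusted p = 0.216). It ranged from 5.94 to 20.8 CPM in 3HH, from 13.7 to 24.1 CPM in 4HH and from 34.2 to 132 CPM in 4RARA. Slopes of the 18 endoplasmic reticulum chaperones were all negative with a median of −0.02, and Sdf2l1 led them at −0.09 ± 0.03 (adjusted p = 0.624). In the heat shock list 16 of 17 were negative with a median of −0.09 and none had an unadjusted p under 0.05, Cryab coming first at −0.04 ± 0.02. The gene just outside the threshold was Nkd2, an antagonist of WNT signalling, at −0.10 ± 0.02 (adjusted p = 0.158), which DESeq2 called.

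In the remaining lists the medians lay between −0.03 and 0.04. They were led by Top2a for the cell cycle (0.08 ± 0.03), Egln3 for HIF targets (−0.08 ± 0.04), Fdft1 for cholesterol synthesis (−0.05 ± 0.02) and Gpihbp1 for fatty acid handling (0.14 ± 0.04). Lum led the extracellular matrix list (0.10 ± 0.04), Ptgis the vasoactive list (−0.07 ± 0.03), Rsad2 the interferon list (0.18 ± 0.06) and Sele the chemokine and adhesion list (−0.23 ± 0.10). The lowest adjusted p among these 8 was 0.697, for Gpihbp1.

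Red cell transcripts had positive slopes on the phase, none of them called in the 19 rats by edgeR or DESeq2 with the phase in its log2 units. With its rank within the litter edgeR called Alas2 (adjusted p = 0.0145), Hbb (0.0325) and the alpha globin gene Hba-a1 (0.049), and with the phase in SD units it called Alas2 (0.0491). All 6 tested erythroid markers were above 0, with a median of 0.25, and 3 of them had an unadjusted p under 0.05. Over all genes, 5802 of 12391 slopes were positive. The 10 neutrophil markers also had 3 at an unadjusted p under 0.05, with 8 positive slopes and a median of 0.076. Lcn2, which had the lowest p of these 10, went the other way at −0.19 ± 0.06. Alas2, the first enzyme of haem synthesis in red cell precursors, had 0.34 ± 0.09 (adjusted p = 0.587) and Hbb, the beta globin gene, 0.33 ± 0.09 (adjusted p = 0.624). The summed erythroid level was 151 to 3017 CPM in 3HH, 1060 to 7341 CPM in 4HH and 660 to 2349 CPM in 4RARA. In 3HH the 4 rats with the lowest phases held 400 CPM or less and the other 4 held 1275 CPM or more. With this sum as a covariate the Dbp slope was −0.37 ± 0.05 (adjusted p = 0.0103), Nr1d2 was −0.22 ± 0.04 (adjusted p = 0.182) and Per3 was −0.15 ± 0.04 (adjusted p = 1.00), so 1 call was left, and the part of the red cell transcripts in the other calls was not tested further. In the same fits to 19 rats none of the other 20 marker lists had a gene called by edgeR or DESeq2, and their medians ran from −0.03 to 0.13, the latter for 5 liver genes.

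**Figure D4:**
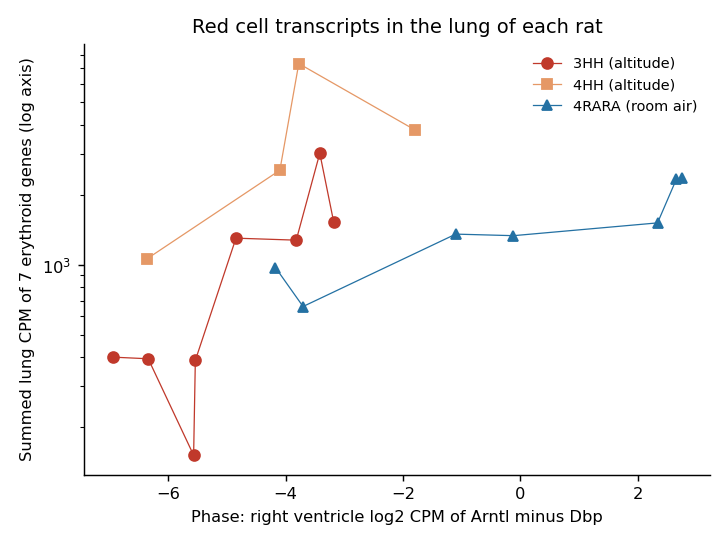
Summed lung CPM of 7 erythroid genes (log axis) against the right ventricular phase (log2), 1 point per rat, with lines joining littermates. The sum is 400 CPM or less in the 4 lowest-phase rats of 3HH and 1275 CPM or more in the rest of that litter, and its highest value is 7341 CPM in 4HH33.

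The altitude comparison was refitted in the same 19 lungs to see how much of it stays with the phase of each rat in the model. Treatment and litter cannot be told apart here, and the adjusted p values count littermates as independent. Without the phase, 420 genes were called (3.39%), of which 194 were higher (1.57%) and 226 lower (1.82%) at altitude. With the phase as a covariate, 52 were called (0.42%), 19 higher (0.153%) and 33 lower (0.266%), and 43 of these were among the 420. The median SE over all genes was 0.128 without and 0.188 with the phase, so the second fit is also less precise. With the phase, leaving out 4RARA40 or 4RARA41, the room air rats with phases inside the altitude range, gave 17 and 26 calls, and leaving out 4HH33 gave 87. Without the phase, the count was 253, 266 and 274 without 4RARA42, 4RARA38 and 4RARA40, and 673 without 4HH33.

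Clock genes made up 7 of the calls without the phase. Dbp was higher at altitude by 2.12 ± 0.55 (log2, SE, adjusted p = 0.0391), Per3 by 1.57 ± 0.27 (0.00174), Per2 by 1.55 ± 0.30 (0.00496), Tef by 0.86 ± 0.21 (0.0222) and Nr1d2 by 0.86 ± 0.23 (0.0396). Arntl differed by −1.21 ± 0.32 (adjusted p = 0.0391) and Nfil3 by −1.15 ± 0.21 (0.00314). With the phase in the model none of the 15 clock genes was called by edgeR or DESeq2, and 2 had an unadjusted p under 0.05, against 9.1% of all genes.

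The differences themselves became small for most of these genes. The covariate is itself a clock measure, which lung Arntl minus Dbp tracked at r = 0.988 in 3HH and 0.967 in 4RARA. Smaller clock gene differences therefore follow largely from its choice, and the values are given as a description. With the phase, Dbp stood at 0.01 ± 0.31, Nr1d2 at −0.05 ± 0.18, Arntl at −0.10 ± 0.29 and Tef at 0.14 ± 0.21. Larger values were left for Per2 (0.73 ± 0.39, adjusted p = 0.618), Per3 (0.59 ± 0.23, adjusted p = 0.384) and Nfil3 (−0.63 ± 0.27, adjusted p = 0.46). The median over the Dbp arm went from 0.96 to 0.09 and that over the Arntl arm from −0.83 to −0.03, while the median over all genes was 0.0084 and −0.0035.

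Other genes kept their altitude difference with the phase in the model, but they were chosen for the lowest p of either altitude fit. Their values are thus descriptions. Marco, Nr5a2, Dsg3 and Slc5a5 were near the floor at altitude and passed the count filter only through 4RARA, the group where they are high. Marco, a scavenger receptor of macrophages, was at 0.631 CPM or less in the altitude litters and at 3.07 to 5.38 CPM in 4RARA. Its difference was −4.93 ± 0.43 without the phase and −5.14 ± 0.54 with it (adjusted p = 4.14e-05). Col6a4, a collagen VI chain, was at 14.9 to 30.2 CPM in the altitude litters and 44.4 to 60.3 CPM in 4RARA, with −1.38 ± 0.12 and −1.46 ± 0.17 (adjusted p = 5.43e-05).

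Gpihbp1, which anchors lipoprotein lipase to capillaries, ranged from 35.6 to 167 CPM in the altitude litters and from 13.5 to 33.6 CPM in 4RARA. It was higher at altitude by 1.84 ± 0.27 without the phase and by 2.60 ± 0.31 with it (adjusted p = 6.45e-05). Slc26a10, a member of the SLC26 transporter family, was at 4.28 to 25.3 CPM at altitude and 0.572 to 1.98 CPM in 4RARA, with 3.24 ± 0.32 and 3.02 ± 0.45. Nr5a2, a nuclear receptor, was at 0.441 CPM or less at altitude and 1.12 to 2.13 CPM in 4RARA, with −2.57 ± 0.24 and −2.65 ± 0.34.

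Dsg3, a desmosomal cadherin, was at 0 in 8 of the 12 altitude lungs and at 0.316 CPM or less in the rest, against 0 in 4RARA39 and 3.65 to 9.66 CPM in the other 6 room air lungs. Slc5a5, the sodium iodide symporter, was at 0.814 CPM or less at altitude and 0.346 to 12.3 CPM in 4RARA. There 4RARA41, 4RARA40 and 4RARA39 held 5.70, 12.3 and 6.70 CPM, and the other rats held 1.01 CPM or less. The Slc5a5 difference, which rests on those named rats, went from −3.56 ± 0.58 to −4.97 ± 0.54 (adjusted p = 4.14e-05). Within 4RARA the Slc5a5 slope on the phase was −0.57, against 0.03 and 0.02 in 3HH and 4HH. The 5 genes with the lowest p of each fit were called again in all 23 other fits without the phase and all 26 with it. Those fits share most of their libraries with the fit that chose the genes, so the repeat is no separate support.

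**Figure D5:**
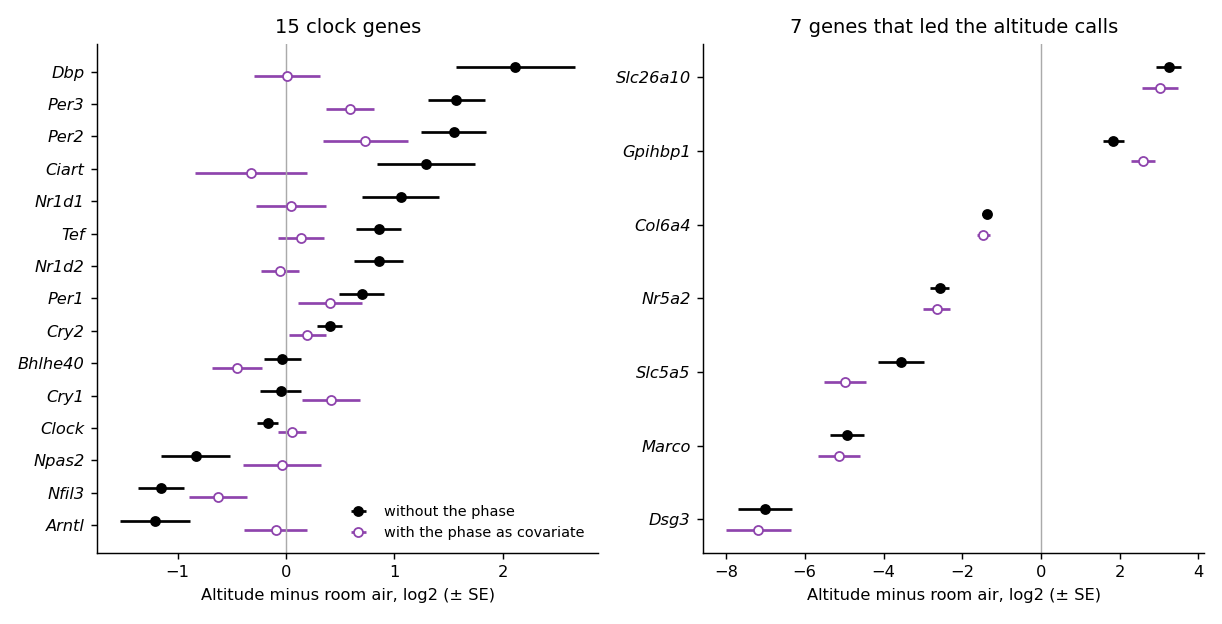
Altitude minus room air in log2 (horizontal axis, bars are SE) for 15 clock genes on the left and 7 genes with the lowest altitude p on the right, fitted without the phase (filled) and with it (open). Dbp goes from 2.12 to 0.01 and Arntl from −1.21 to −0.10, while Marco stays at −4.93 and −5.14.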

How the data were processed

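Lung and right ventricle RNA of the same rats was compared. Per the labels' protocols, messenger RNA libraries (KAPA HyperPrep) of both tissues shared 1 flowcell of a HiSeq4000. Per the submitters' processing notes, the tools were FastQC, MultiQC 0.11.5, STAR 2.5, featureCounts 1.5.1 of Subread, and edgeR. The deposited values used are raw read counts per gene on rn6, per the file headers, for 12650 lung and 12199 ventricle genes that the authors kept by a filter not stated. Of these, 22 and 21 entries carry a number in place of a symbol and were left unnamed. Other deposited values, which the authors gave per library (mapping statistics, batch, comments), served as checks. Promoter windows came from a RefSeq table of assembly GRCr8, a build other than that of the counts, and no whole genome was used.

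Counts were fitted in R 4.3.3 with edgeR 4.0.16 after filterByExpr by litter (minimum count 10, minimum total 15) and TMM scaling, with robust quasi-likelihood fits. The phase used a prior count of 2. A slope divided by the root of its F statistic gave its SE. Adjusted p values are Benjamini-Hochberg values across the genes tested in a fit, and calls were made under 0.05. Printed CPM values are scaled by TMM. Relations of lung and ventricle phase were tested over all pairings (40320 in 3HH, 5040 in 4RARA), as 2 relations. The fits of the slope and of its difference between treatments were also run on simulated counts. These held no litter differences, so they do not test the fits under such differences, and their outcome is not given here. Alternatives included limma 3.58.1, DESeq2 1.42.0, RLE scaling, no filter, other phases, covariates and left-out animals. Named genes were the clock genes, the called genes, the lowest p of each other list, the 5 lowest p of each altitude fit and the gene on either side of the threshold. Members and lists were chosen with earlier results of these data known. Genes named only because another tool called them, and Hbb, were chosen after their values were seen.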

Additional observations from a re-analysis of the deposited data

Results flagged for a closer look

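In 111 sets of littermates (37 genes in 3 litters), 1 rat stood far from the others in 6, where chance flags about 1 in 20 sets. Lung Nr1d1 in 4HH36, the rat of 4HH with the lowest phase, was at 232 CPM, with the next at 101 CPM. Sdf2l1 in 3HH25 was at 20.5 CPM, with the next lowest at 30.9 CPM. Top2a in 4RARA40 was at 27.7 CPM, with the next lowest at 52.7 CPM. Nr5a2 in 3HH30 was at 0.118 CPM, with the next lowest at 0.21 CPM. Dsg3 was at 0.042 CPM in 4HH40 with the other 3 rats of 4HH at 0, a difference at the level of a single read. Dsg3 was at 0 in 4RARA39, with the other 6 rats of 4RARA at 3.65 CPM or more. The distances were taken on log2 of CPM plus 0.01, which stretches differences close to 0.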

How the results depend on the processing

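The count of 3 genes following the phase was 3 under RLE scaling, no filter, limma voom and the phase from both arms. It was also 3 with sex or lung RIN as a covariate, and 2 to 3 with 1 rat left out. The RIN of the ventricle libraries, which set the phase, was not used as a covariate. Among the rats fitted it was lowest in 3HH30, the rat with the lowest phase, and without 3HH30 the count was 2. The count was 4 with ventricular Dbp alone or with 4 rats of 6RARA, and 2 with 4HH37 and 4HH39 added. It was 19 by DESeq2, 7 with ventricular Arntl alone, 1 with batch, without 3HH or without 4RARA, and 0 within batch 1 (193 at an unadjusted p under 0.05) and within batch 2 (645). Among alternatives chosen after seeing the data, it was 8 with the phase in SD units, 13 with its rank and 1 with the erythroid sum. Beside Dbp, called in 39 of 41 fits, Nr1d2 was called in 33 and Per3 in 25. DESeq2 gave 3 genes for the slope difference, against 0 in all 19 fits with 1 rat left out, and 713 and 113 for altitude without and with the phase. The altitude counts ran from 253 (without 4RARA42) to 673 (without 4HH33) and, with the phase, from 17 (without 4RARA40) to 87 (without 4HH33). The latter was 32 with sex and 88 with ventricular Dbp alone. The correlation in 4RARA fell to 0.862 without the 2 farthest rats. No cause of these changes was tested.

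Slopes that changed sign, none of them called, were Cry1 without 4RARA (−0.0669), in 3HH alone (−0.146) and in batch 1 (−0.0504), Cry2 without 3HH (0.00171) and in 4RARA alone (0.00645), Nr1d1 in 3HH alone (0.0221), Per1 with 6RARA (0.0438) and with 1 rat left out (−0.0995 to 0.0164, positive without 4RARA41), and Cryab (0.0126) and Egln3 (0.0995) with 4HH37 and 4HH39. No paired analysis was possible because each rat gave 1 lung library, equal numbers in 2 litters name different rats, and the ventricle library of a rat supplies the phase itself. Depth limits low genes such as Dsg3 and Nr5a2.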
